A study of Saccharomyces cerevisiae S288C with 18 samples.

Results

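The lysine biosynthesis genes of Saccharomyces cerevisiae are described here as a set of 9, taken by systematic name from the count table: LYS1 (YIR034C), LYS2 (YBR115C), LYS4 (YDR234W), LYS5 (YGL154C), LYS9 (YNR050C), LYS12 (YIL094C), LYS14 (YDR034C), LYS20 (YDL182W) and LYS21 (YDL131W), of 6692 genes in all. Their expression was measured by RNA-seq in cultures of the wild type strain S288C grown in RPMI-1640 at 30 °C, with 3 biological replicates in each of 6 groups (18 libraries). AMB is amphotericin B, a polyene antifungal that binds ergosterol in the fungal membrane, and LF is bovine lactoferrin, an iron-binding milk protein that was combined with it because the pair acts in synergy. AMB cultures received 0.03 µg/mL amphotericin B for 60 minutes, AMB-LF cultures 0.03 µg/mL amphotericin B and 2 µg/mL lactoferrin for 50 minutes, and LF cultures 2 µg/mL lactoferrin for 50 minutes. Each treatment had its own untreated control, kept for 60, 50 and 50 minutes respectively according to the sample labels. AMB and AMB-LF differ in time as well as in lactoferrin, so the effect of lactoferrin and that of the shorter exposure cannot be told apart.

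Fungi make lysine by the α-aminoadipate pathway, which plants and most bacteria do not use. Homocitrate synthase, encoded by LYS20 and LYS21, joins acetyl-CoA to oxoglutarate, homoaconitase (LYS4) and homoisocitrate dehydrogenase (LYS12) carry the product to oxoadipate, and an aminotransferase turns this into α-aminoadipate. The reductase Lys2, which Lys5 activates by adding a phosphopantetheine group, reduces α-aminoadipate to its semialdehyde, and saccharopine reductase (LYS9) and saccharopine dehydrogenase (LYS1) complete the route. LYS14 encodes a zinc cluster activator of the pathway that needs the semialdehyde as its inducer, and the general amino acid control activator Gcn4 acts on many amino acid genes including those for lysine. RPMI-1640 is a defined medium that itself contains lysine.

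All 9 genes consist of 1 coding exon each, and no other annotated gene overlaps their coding sequences in the R64 genome. LYS12 (186517 to 187632) and LYS1 (419615 to 420736) are on chromosome IX, LYS2 on chromosome II (469748 to 473926), LYS5 on chromosome VII (215278 to 216096) and LYS9 on chromosome XIV (714048 to 715388), all on the minus strand. Chromosome IV holds LYS20 (133437 to 134723), LYS21 (227393 to 228715) and LYS4 (931129 to 933210) on the plus strand and LYS14 (509737 to 512109) on the minus strand.

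Promoter sequences, defined as the 250 bases before the start codon and the first 50 coding bases, were read from the RefSeq R64 genome. They were searched on both strands for TGACTC, the core recognised by Gcn4, and for TCCNNNGGA, called the Lys14 motif here. The latter is a pair of half-sites with any bases between them and may be looser than the sites that Lys14 binds. The Gcn4 core occurred in 4 of the 9 promoters (LYS1, LYS2, LYS12 and LYS14), against 479 of 6001 promoters of all genes (7.98%). The Lys14 motif occurred in 4 of the 9 as well (LYS1, LYS9, LYS12 and LYS14), against 204 of 6001 (3.4%). LYS1, LYS12 and LYS14 held both, as did 31 of all promoters (0.517%), while LYS4, LYS5, LYS20 and LYS21 held neither. The Lys14 motif reads the same on both strands, and no match of one motif overlapped a match of the other. These are descriptions of letters within a fixed window and not of bound sites.

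A set of 4 promoters is printed because it shows each combination of the motifs: LYS1 (chrIX:420687-420986) has both, LYS2 (chrII:473877-474176) only the Gcn4 core, LYS9 (chrXIV:715339-715638) only the Lys14 motif and LYS5 (chrVII:216047-216346) neither. All are on the minus strand and are written in the direction of transcription, with motif matches in capitals:
LYS1: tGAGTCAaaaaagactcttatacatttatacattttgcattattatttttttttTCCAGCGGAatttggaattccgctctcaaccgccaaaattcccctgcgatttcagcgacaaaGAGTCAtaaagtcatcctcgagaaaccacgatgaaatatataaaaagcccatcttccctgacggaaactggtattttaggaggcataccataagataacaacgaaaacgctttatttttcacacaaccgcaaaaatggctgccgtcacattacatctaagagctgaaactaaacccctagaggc
LYS2: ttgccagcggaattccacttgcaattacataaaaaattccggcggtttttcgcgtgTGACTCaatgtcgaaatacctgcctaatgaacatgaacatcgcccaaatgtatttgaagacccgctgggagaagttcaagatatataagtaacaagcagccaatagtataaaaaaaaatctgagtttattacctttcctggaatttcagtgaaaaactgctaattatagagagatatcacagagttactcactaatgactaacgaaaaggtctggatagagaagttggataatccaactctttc
LYS9: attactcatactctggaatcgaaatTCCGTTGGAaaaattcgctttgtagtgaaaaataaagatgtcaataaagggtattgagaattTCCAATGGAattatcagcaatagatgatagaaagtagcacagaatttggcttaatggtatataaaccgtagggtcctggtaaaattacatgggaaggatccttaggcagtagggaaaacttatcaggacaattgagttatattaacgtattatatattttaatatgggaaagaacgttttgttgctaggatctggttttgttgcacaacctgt
LYS5: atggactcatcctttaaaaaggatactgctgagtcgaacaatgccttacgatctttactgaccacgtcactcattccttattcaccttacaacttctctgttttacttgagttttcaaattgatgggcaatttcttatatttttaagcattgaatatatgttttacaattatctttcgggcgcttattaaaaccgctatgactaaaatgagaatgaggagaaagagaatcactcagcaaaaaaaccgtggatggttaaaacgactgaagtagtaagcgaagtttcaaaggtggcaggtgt
In LYS1 the Gcn4 core began 249 and 134 bases before the start codon, in both places on the opposite strand, and the Lys14 motif 196 bases before it. The single Gcn4 core of LYS2 began at 194 bases, and the 2 Lys14 motifs of LYS9 at 225 and 163 bases. The letters of the Gcn4 core and of the Lys14 motif in LYS12, which is not printed, began at 158 and 182 bases before the start codon.

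**Figure D1:**
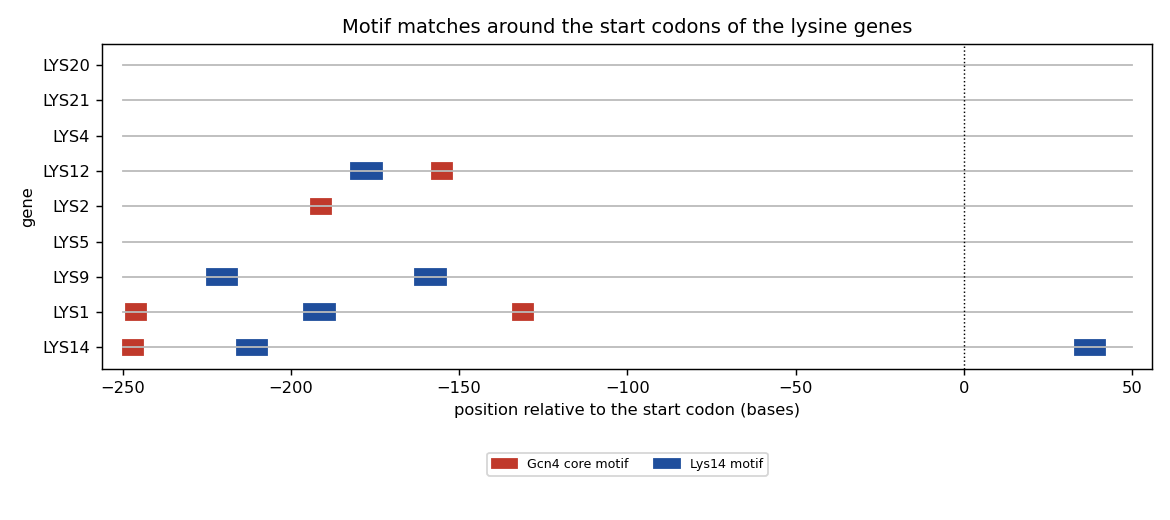
Positions of the Gcn4 core (red) and the Lys14 motif (blue) around the start codon (dotted line, in bases) of each of the 9 genes, in pathway order with LYS14 last. Matches appear in LYS12, LYS2, LYS9, LYS1 and LYS14, and none in LYS20, LYS21, LYS4 and LYS5.

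Between 6799569 and 9696467 reads were counted per HiSeq library (AMB, AMB-LF and their controls, 12 libraries) and between 23925944 and 30172836 per NextSeq library (LF and its control, 6 libraries). Expression is given in CPM, read counts scaled to a common library size with TMM factors, and changes as log2 fold changes with their standard errors (SE) and p-values adjusted over all tested genes (edgeR's quasi-likelihood test, Benjamini-Hochberg), called at an adjusted p under 0.05. Every one of the 9 genes exceeded 7 CPM in all 18 libraries, with 262 reads for the lowest count. The HiSeq libraries were spread over 2 lanes, and all 3 controls for AMB-LF were in lane 1. The study's scaling plot and its growth protocol place the HiSeq controls the other way round from the sample labels used here. By contrast, the study's methods and its table of experiments give each control the time of its own treatment, as the sample labels do. The results of the 9 genes, and the counts of the accompanying lists, are therefore also given with the control groups exchanged. LYS20 and LYS21 have 91.6% identical bases over 1281 aligned coding positions. Of their 100-base windows, 24.4% in LYS20 and 23.7% in LYS21 also occur elsewhere in the genome. Reads from these stretches may be left out of the counts or divided wrongly between these genes. No such window was found in the other 7 genes. Total RNA per cell was not measured, so all changes are relative to the other transcripts of a library.

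Under AMB, the expression of all 9 lysine genes increased relative to the matched control, from 1.42-fold for LYS5 to 4.44-fold for LYS1. The increase reached both ends of the pathway, with the homocitrate synthases at its entry and saccharopine dehydrogenase at its exit, and also the activator LYS14. In each of the 9 genes the 3 AMB libraries were all higher than the 3 control libraries. Among all 5456 tested genes, 18.7% increased, 18.4% decreased and 26.3% had all AMB libraries above the control. The median log2 fold change was 1.13 over the 9 genes and -0.019 over all tested genes, and the 9 genes took between 0.511% and 0.6% of all counts under AMB but between 0.198% and 0.206% in the control.

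AMB-LF gave a similar list: 8 of the 9 genes increased relative to their own control, and LYS5 did not pass the test. For each of the 9, the AMB-LF libraries were again all above the control libraries. The background in this comparison was 14.1% of tested genes increased, 15.1% decreased and 25% with all AMB-LF libraries higher. The median log2 fold change was 1.53 over the 9 genes and -0.009 over all tested genes. LYS1 (4.7-fold) and LYS2 (4.57-fold) had the largest increases among the 9.

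**Figure D2:**
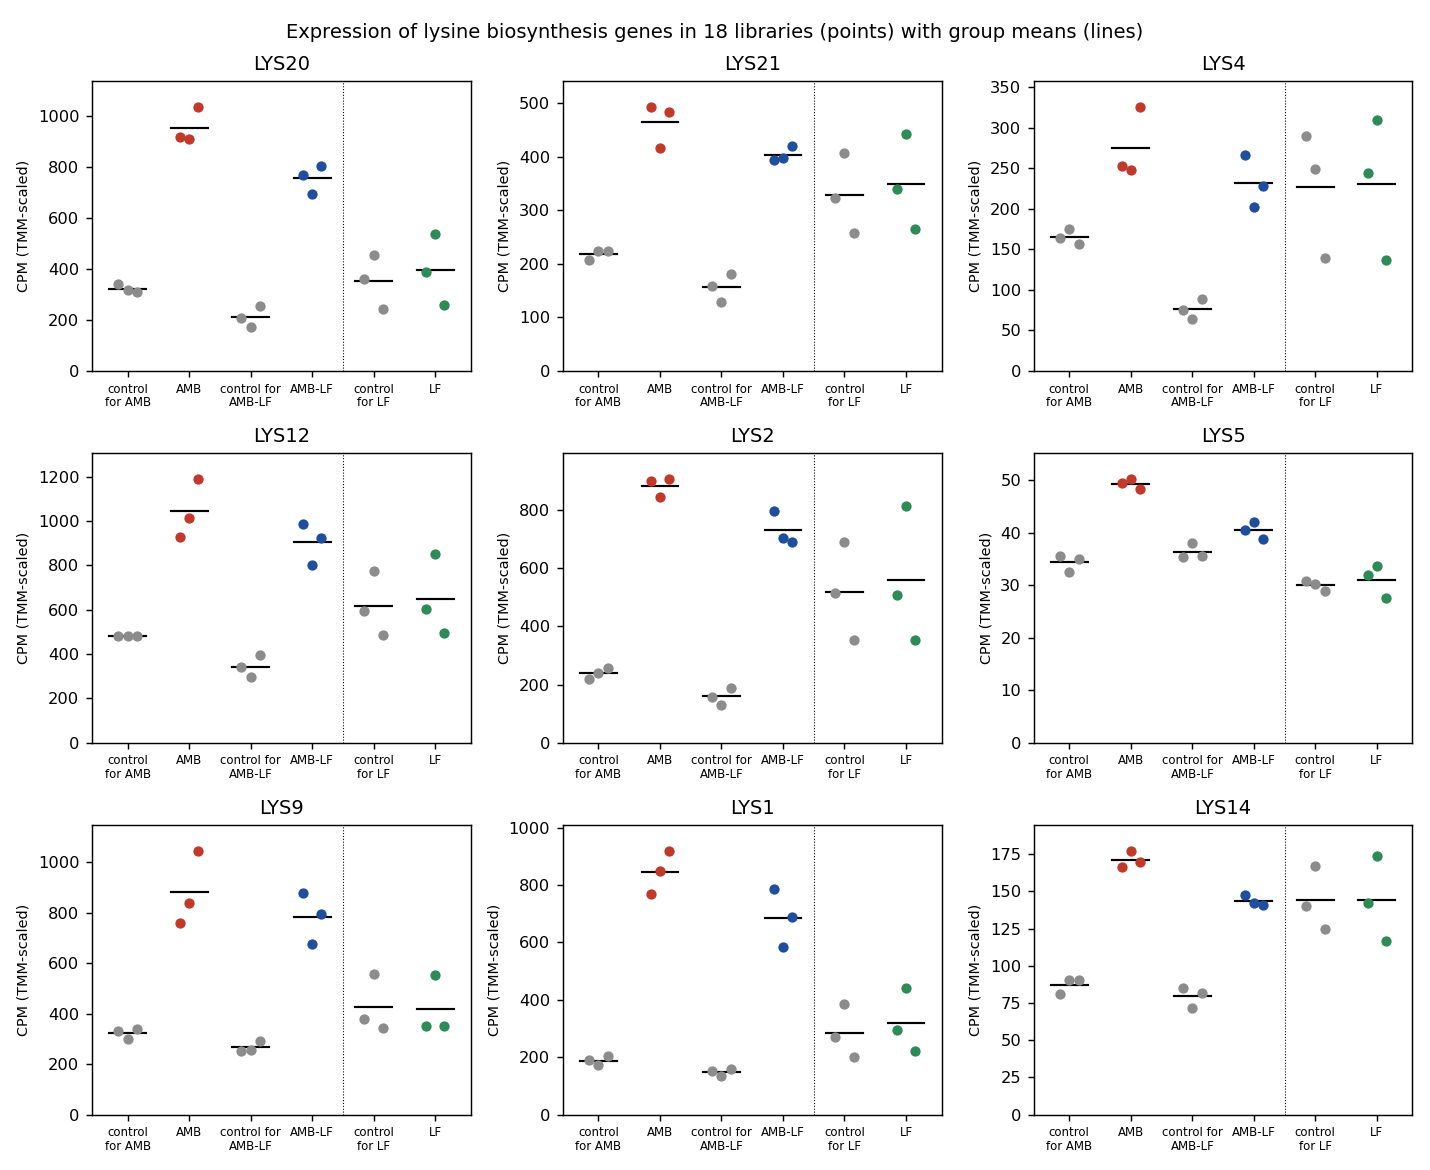
Expression in CPM of each of the 9 genes in all 18 libraries (points) with group means (lines), HiSeq groups left and NextSeq groups right of the dotted line. In every panel the AMB and AMB-LF points lie above those of their controls, and the LF points overlap those of the control for LF.

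At the entry of the pathway, LYS20, the more abundant homocitrate synthase transcript, measured 916, 908 and 1032 CPM under AMB against 341, 316 and 308 CPM in its control. Its expression increased by 1.57 on the log2 scale (SE 0.135, adjusted p = 7.41e-06). Under AMB-LF it stood at 768, 695 and 803 CPM against 208, 171 and 256 CPM, an increase of 1.83 (SE 0.147, adjusted p = 5.06e-06). The treated libraries were well apart from the controls in both pairs of groups. LYS21, its paralog, increased less in both treatments, by 1.12 under AMB (SE 0.113, adjusted p = 2.68e-05) and by 1.30 under AMB-LF (SE 0.123, adjusted p = 1.72e-05). It measured 493, 417 and 485 CPM under AMB against 207, 224 and 225 CPM, and 394, 398 and 420 CPM under AMB-LF against 159, 130 and 182 CPM. The difference between the changes of LYS20 and LYS21 was not tested, and how reads of their shared stretches entered the counts was not examined.

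LYS4 encodes homoaconitase, a mitochondrial iron-sulfur enzyme. With the controls as labelled, it had the largest difference of the 9 between its changes under AMB and AMB-LF. It measured 253, 248 and 325 CPM under AMB against 164, 175 and 157 CPM in the control, an increase of 0.74 on the log2 scale (SE 0.143, adjusted p = 0.00233). Under AMB-LF it measured 266, 202 and 228 CPM against 74.7, 64.1 and 88.7 CPM in the control, an increase of 1.59 (SE 0.158, adjusted p = 2.56e-05). The AMB and AMB-LF libraries overlapped each other, whereas the controls for AMB-LF were all lower than the controls for AMB. LYS12, which encodes homoisocitrate dehydrogenase and had the highest level per length of the 9 in the AMB control, rose from 481, 481 and 480 CPM to 929, 1013 and 1189 CPM under AMB. Its log2 fold changes were 1.13 under AMB (SE 0.129, adjusted p = 6.55e-05) and 1.38 under AMB-LF (SE 0.14, adjusted p = 3.18e-05), where it measured 986, 803 and 925 CPM against 340, 296 and 395 CPM.

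For LYS2, the α-aminoadipate reductase gene, the AMB libraries measured 899, 844 and 906 CPM and the control libraries 219, 241 and 256 CPM. The log2 fold change was 1.89 under AMB (SE 0.129, adjusted p = 1.31e-06) and 2.19 under AMB-LF (SE 0.138, adjusted p = 1.18e-06). The AMB-LF libraries measured 798, 706 and 690 CPM against 159, 130 and 188 CPM. No LYS2 value of a treated library came near those of the controls. LYS5, which encodes the enzyme that activates Lys2, was the least expressed of the 9 in CPM and changed least, with 49.45, 50.15 and 48.25 CPM under AMB against 35.48, 32.52 and 35.03 CPM. Its increase under AMB was 0.51 (SE 0.0694, adjusted p = 0.000264). Under AMB-LF it measured 40.42, 41.93 and 38.82 CPM against 35.31, 38.09 and 35.56 CPM, with a log2 fold change of 0.18 (SE 0.0765, adjusted p = 0.0987). These groups did not overlap but lay close together, and among the alternatives tried LYS5 passed the test only where the controls were exchanged (0.23, adjusted p = 0.0202) or pooled (0.21, adjusted p = 0.028).

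The last steps showed large increases. LYS9, for saccharopine reductase, measured 759, 840 and 1044 CPM under AMB against 332, 300 and 340 CPM in the control, an increase of 1.45 on the log2 scale (SE 0.135, adjusted p = 1.33e-05). The AMB-LF libraries held 878, 675 and 794 CPM against 253, 258 and 292 CPM, an increase of 1.53 (SE 0.146, adjusted p = 1.85e-05). LYS9 was well above its controls in all treated libraries, and AMB and AMB-LF overlapped. For LYS1, for saccharopine dehydrogenase, expression under AMB was 770, 848 and 919 CPM against 190, 172 and 203 CPM, an increase of 2.15 (SE 0.125, adjusted p = 3.67e-07). Under AMB-LF it was 785, 584 and 689 CPM against 152.5, 134.2 and 160.2 CPM, an increase of 2.23 (SE 0.134, adjusted p = 8.99e-07). LYS1 held rank 12 of 5456 genes by increase under AMB and rank 21 under AMB-LF, the highest rank of the 9 in both.

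The activator gene LYS14 had, like LYS5, a smaller log2 fold change under AMB-LF than under AMB with the controls as labelled. It measured 167, 177 and 170 CPM under AMB against 80.8, 90.5 and 90.3 CPM, an increase of 0.98 (SE 0.0757, adjusted p = 3.34e-06). Under AMB-LF it measured 148, 142 and 141 CPM against 85.1, 71.5 and 81.7 CPM, an increase of 0.84 (SE 0.0823, adjusted p = 2.43e-05). The difference between its changes did not pass the test (-0.14, SE 0.12, adjusted p = 0.446), whereas with the controls exchanged it did (-0.38, adjusted p = 0.0264). By size of increase the 9 genes spanned ranks 12 to 409 of 5456 under AMB and ranks 21 to 1429 under AMB-LF, with LYS5 last in both.

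**Figure D3:**
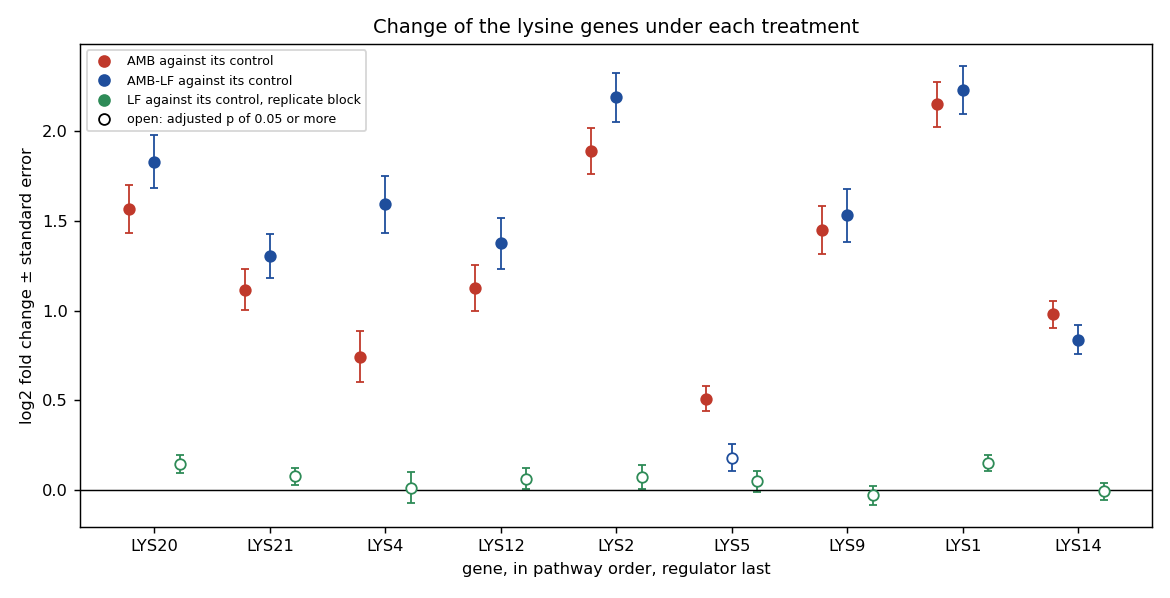
Log2 fold change with standard error of each gene under AMB (red), AMB-LF (blue) and LF with replicate block (green), filled where the adjusted p was under 0.05. AMB and AMB-LF values lie above 0 throughout and reach 2.15 and 2.23 in LYS1, whereas the LF values lie between -0.03 and 0.15.

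A single lane leaves 1 library in an arm, which these fits assume to vary like the other groups. Within lane 1 alone (2 AMB libraries and 1 control), 7 genes were called under AMB with a median log2 fold change of 1.12, where 6.58% of tested genes increased, and LYS4 (0.59, adjusted p = 0.0758) and LYS5 (0.47, adjusted p = 0.0515) did not pass the test. Within lane 2 alone (1 AMB library and 2 controls) all 9 were called, with a median of 1.33, where 7.33% of tested genes increased. For AMB-LF, lane 1 alone (1 AMB-LF library and 3 controls) gave 8 called genes and a median of 1.71, where 5.57% of tested genes increased, and lane 2 held no control. With the controls exchanged all 9 genes increased in both treatments (16.8% and 16.5% of tested genes did), with medians of 1.71 under AMB and 0.91 under AMB-LF, and LYS4 then had the larger increase under AMB (1.85) and the smaller under AMB-LF (0.49). With the 6 untreated libraries pooled as 1 control all 9 increased in both as well (12.8% and 10.1% of tested genes), with medians of 1.34 and 1.09.

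Levels were also compared per length, in CPM per kilobase of coding sequence. In the control for AMB they were highest for LYS12 (431 ± 0.529, SD, n = 3), followed by LYS20 (250 ± 13.3) and LYS9 (242 ± 15.9), LYS1 (168 ± 14.0) and LYS21 (165 ± 7.81), then LYS4 (79.3 ± 4.36), LYS2 (57.1 ± 4.48), LYS5 (41.9 ± 1.95) and LYS14 (36.8 ± 2.34). LYS20 and LYS9 overlapped within their spread, as did LYS1 and LYS21. Under AMB, LYS12 (935 ± 119) remained highest by its mean, and LYS1 (753 ± 66.4), LYS20 (740 ± 53.9) and LYS9 (657 ± 109) followed with overlapping values. LYS1 thus moved next to LYS20 and LYS9, from which it was apart in the control. LYS14 (72.1 ± 2.28) and LYS5 (60.2 ± 1.17) exchanged places at the low end.

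To ask whether lactoferrin changed the response, the change under AMB-LF was compared with that under AMB. LYS4 was the only one of the 9 whose change differed, by 0.85 on the log2 scale (SE 0.223, 95% interval 0.36 to 1.34, adjusted p = 0.0277), with the larger increase under AMB-LF. Across all tested genes 10.1% had a larger and 7.46% a smaller change under AMB-LF. For LYS5 the difference was -0.33 (SE 0.11, adjusted p = 0.0601). The other 7 had differences between -0.14 and 0.30, with 95% intervals that reached from -0.41 at the lowest to 0.74 at the highest. The difference in LYS4 was not called without the first replicate of the control for AMB (0.84, adjusted p = 0.146), of AMB-LF (0.53, adjusted p = 0.264) or of the control for AMB-LF (0.86, adjusted p = 0.0527), within lane 1 (1.21, adjusted p = 0.0662), or with the replicate number as a block (0.90, adjusted p = 0.0907). Over all tested genes 0 were called in either direction without the first replicate of the control for AMB or of AMB-LF, 1 larger and 5 smaller changes under the block, and 4 larger and 0 smaller within lane 1, where AMB-LF and the control for AMB had 1 library each. The first replicates of the control for AMB and of AMB-LF were the only libraries of their groups in lane 1. Without that of AMB-LF, the group and its control shared no lane, so lane and replicate cannot be told apart there. With the controls exchanged the difference in LYS4 turned to -1.35 (adjusted p = 0.00423). Of the 9, 7 then had a smaller change under AMB-LF and none a larger one, against 13.1% and 6.87% of tested genes.

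The controls themselves differed. Taking the control for AMB as the reference, 5 of the 9 genes had lower expression in the control for AMB-LF and none had higher expression, where 16.6% of tested genes were lower and 15.2% higher. LYS4 differed most, at -1.10 on the log2 scale (SE 0.161, adjusted p = 0.00167). LYS20 (-0.60), LYS2 (-0.57), LYS12 (-0.46) and LYS21 (-0.42) had adjusted p-values between 0.00944 and 0.0275. In 7 of the 9, LYS5 and LYS14 excepted, all libraries of the control for AMB-LF were lower, which held for 22.8% of tested genes. LYS1 (-0.37, adjusted p = 0.058), LYS9 (-0.26), LYS14 (-0.12) and LYS5 (0.05) did not pass the test. The median was -0.42 over the 9 genes and 0.034 over all tested genes. Without the first replicate of the control for AMB only 2 of the 9 were called, LYS2 and LYS4 (7.42% of tested genes were lower), and within lane 1, with 1 control for AMB, only LYS4 (7.73% of tested genes). By their labels the controls also differed in time in culture, and the part of time in these differences was not tested.

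**Figure D4:**
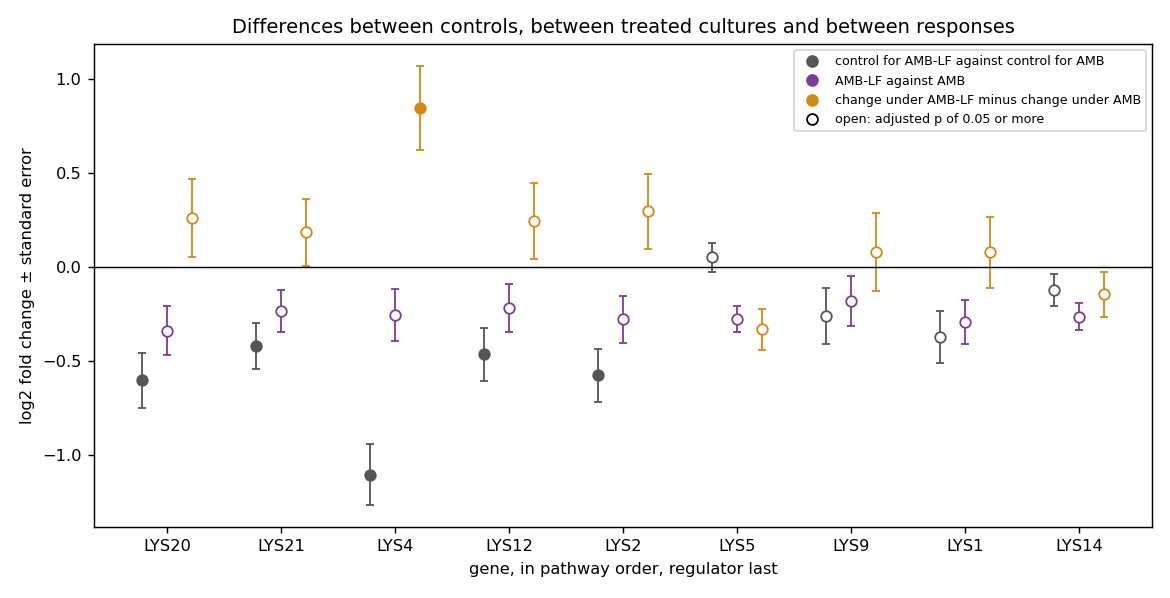
Log2 differences with standard error for each gene between the controls (grey), between AMB-LF and AMB cultures (purple) and between the responses (orange), filled where the adjusted p was under 0.05. In LYS4 the controls differ by -1.10 and the responses by 0.85, while AMB-LF and AMB cultures differ by -0.25.

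Compared directly, AMB-LF and AMB cultures did not differ in any of the 9 genes at an adjusted p under 0.05 (edgeR's quasi-likelihood test). The log2 differences were all negative, from -0.34 for LYS20 to -0.18 for LYS9, with a median of -0.26. LYS2, LYS5, LYS14 and LYS20 were lower in all AMB-LF libraries than in all AMB libraries, against 9.62% of tested genes. The lowest adjusted p-values were those of LYS5 (0.188) and LYS14 (0.248), and 5 of the 9 had an unadjusted p under 0.05. Across all genes 0.0183% were higher and 0.312% lower, with 386 genes at an unadjusted p under 0.05, and DESeq2 and the likelihood ratio test called none of the 9 either. The difference in response of LYS4 stood beside treated levels whose difference did not pass the test (-0.25, 95% interval -0.56 to 0.05) and control levels whose difference did.

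LF alone left the lysine genes without a called change. None of the 9 passed the test, as none of the 5445 tested genes did (0% increased and 0% decreased, 8 genes at an unadjusted p under 0.05, none called by DESeq2 or the likelihood ratio test). LYS1 measured 294, 443 and 220 CPM under LF against 270, 385 and 201 CPM in its control, and LYS2 measured 509, 813 and 354 CPM against 515, 690 and 355 CPM. The LF and control libraries of both genes overlapped, and in each group replicate 2 was highest and replicate 3 lowest. The study assigned the LF replicates to different days, and with replicate as a block still none of the 9 was called, nor was any other gene (418 genes at an unadjusted p under 0.05). The blocked log2 fold changes lay between -0.03 for LYS9 and 0.15 for LYS1 and LYS20. For LYS1 the 95% interval was 0.05 to 0.25 (adjusted p = 0.493) and for LYS20 0.03 to 0.26 (adjusted p = 0.541), and all 9 intervals ended at or below 0.26, below the changes called under AMB and AMB-LF against their labelled controls. These bounds hold for the blocked fit. Over all alternatives the estimates ran from -0.155 to 0.438 for LYS1 and from -0.132 to 0.392 for LYS20. With block, the likelihood ratio test called 7 genes higher and 13 lower and DESeq2 1 lower, none of them a lysine gene.

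Levels of the lysine genes followed the day of culture. Averaged over LF and control, LYS2 measured 512, 752 and 354 CPM in replicates 1, 2 and 3, and LYS4 measured 267, 279 and 138 CPM. Replicate 2 had the highest mean and replicate 3 the lowest for every one of the 9 genes. The share of all tested genes with this order was not counted. In the study's scaling plot the LF and control libraries grouped by day over the whole transcriptome, so a day effect is not particular to these genes. The ratio of replicate 2 to replicate 3 ran from 1.13 for LYS5 to 2.12 for LYS2, with 2.02 for LYS4, 1.99 for LYS20 and 1.96 for LYS1. LYS5 thus varied least between days, as it did under AMB and AMB-LF. The NextSeq libraries came from another kit and read length, and their levels are not compared with those of the HiSeq libraries.

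**Figure D5:**
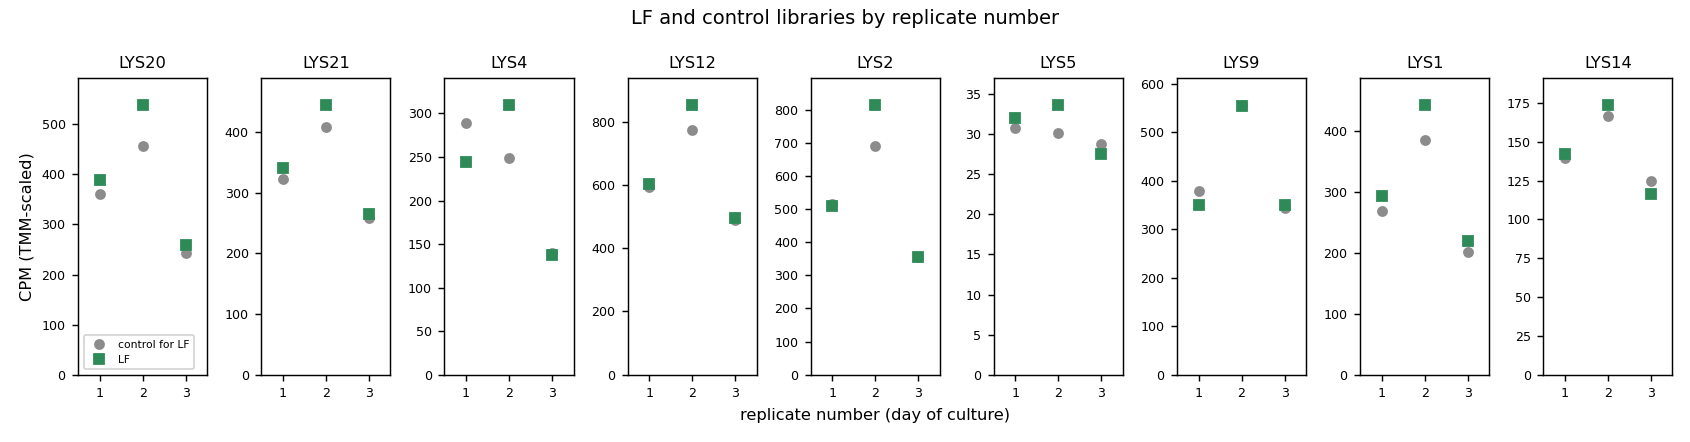
CPM of each gene in the LF (green squares) and control (grey circles) libraries by replicate number, which marks the day of culture. Replicates 2 and 3 differ 2.12-fold in LYS2 and 1.13-fold in LYS5, while squares and circles of the same replicate lie closer together for most genes.

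Other enzymes and carriers that serve the pathway were read from a list of 4. Under AMB 3 increased and 1 decreased, where 18.7% of tested genes increased and 18.4% decreased. Under AMB-LF 3 increased and none decreased, where 14.1% of tested genes increased and 15.1% decreased. These counts were the same with the controls exchanged, where 16.8% of tested genes increased under AMB and 16.5% under AMB-LF. ARO8 and ARO9 encode aminotransferases that can form α-aminoadipate, and increased by 1.18 and 1.02 under AMB and by 1.25 and 1.42 under AMB-LF. ODC2, a mitochondrial carrier of oxodicarboxylates, increased by 1.42 and 1.55. Its paralog ODC1 decreased by 0.28 under AMB (adjusted p = 0.0465) and had a log2 fold change of -0.27 under AMB-LF that did not pass the test. With a replicate block no gene of the list was called decreased under AMB.

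Of the regulators, GCN4 transcript did not pass the test under AMB (0.18) but increased under AMB-LF (0.83, adjusted p = 0.000519), and these changes differed (0.65, adjusted p = 0.0303). With the controls exchanged GCN4 increased under AMB (0.84) and did not pass the test under AMB-LF (0.17), and the difference turned to -0.67 (adjusted p = 0.0137). With a replicate block it was 0.72 and did not pass the test (adjusted p = 0.103). GCN4 measured 1523 ± 56.3 CPM under AMB and 1503 ± 12.4 CPM under AMB-LF, with 1339 ± 44.8 and 854 ± 128 CPM in the respective controls, so the treated levels lay together and the controls apart. Gcn4 is known to be regulated mainly in translation, which these counts do not measure. MKS1, a negative regulator of lysine genes, increased slightly under AMB (0.25, adjusted p = 0.00692) and did not pass the test under AMB-LF (0.17). With the controls exchanged MKS1 was called increased under AMB (0.24) and under AMB-LF (0.18). Of 6 genes for lysine transport and charging, 2 increased under AMB (CAN1 and ALP1) and 5 under AMB-LF, with none decreased, beside 18.7% and 14.1% of all tested genes. These counts turned to 5 under AMB and 2 under AMB-LF with the controls exchanged. CAN1, the arginine permease that also carries lysine, had the largest changes of these, 1.63 and 2.28, and ALP1, an arginine permease, increased by 0.66 and 0.68. LYP1, the lysine permease, had a log2 fold change of 0.24 under AMB, which did not pass the test, and increased by 0.44 under AMB-LF. The vacuolar transporter YPQ1 (0.44) and the lysyl-tRNA synthetase KRS1 (0.87) increased under AMB-LF, and YPQ1 alone of these 6 had a called difference between responses (0.54, adjusted p = 0.04), which was -0.76 (adjusted p = 0.00861) with the controls exchanged. KRS1 then increased under AMB (1.12) and did not pass the test under AMB-LF (0.08), and its difference between responses was called as well (-1.04, adjusted p = 0.00665). With the controls as labelled and a replicate block, none of these 6 genes had a called difference between responses. Over all tested genes 1 larger and 5 smaller changes were called under this block.

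Genes of other amino acid pathways were also higher. All 9 arginine genes increased in both treatments, with medians of 2.2 under AMB and 2.39 under AMB-LF, and of 7 histidine genes 6 increased under AMB (median 1.08) and 7 under AMB-LF (median 1.16), beside 18.7% and 14.1% of all tested genes. All 9 arginine genes still increased in both with the controls exchanged, with medians of 2.86 and 1.73, as did 7 and 6 histidine genes. The genes whose pattern over the 4 HiSeq group means came nearest to the median of the lysine genes, by root mean square distance of centred log2 CPM, were HIS1 (0.0345), which encodes the first enzyme of histidine synthesis, ARO8 (0.0513), TRP2 (0.0542), a subunit of anthranilate synthase in tryptophan synthesis, SAM4 (0.0621), a homocysteine methyltransferase, and ARO9 (0.0629). Their log2 fold changes ran from 0.99 for SAM4 to 1.24 for TRP2 under AMB and from 1.25 for ARO8 to 1.42 for ARO9 under AMB-LF. Among the 9 themselves, LYS12 (0.00515) and LYS21 (0.0173) lay nearest to the median, which they help to set, and LYS5 (0.508), LYS1 (0.462) and LYS2 (0.395) farthest from it.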

How the data were processed

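RNA-seq libraries of 18 cultures were used, 12 from the HiSeq and 6 from the NextSeq. The authors deposited raw counts, made by mapping reads to R64 with TopHat and Bowtie (after trimming on the HiSeq) and counting them on coding sequences with HTSeq (0.5.3p9 is named in the submitters' processing notes), irrespective of strand and without ambiguous overlaps. The authors also deposited tables of group averages on a log2 scale and of their own comparisons (fold changes, p-values and false discovery rates), which were not used.

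Of 6692 gene names 6008 matched the R64 annotation. A gene was tested if it reached 7 CPM in 6 or more HiSeq libraries (5456 genes) or in 3 or more NextSeq libraries (5445 genes). Counts were TMM-scaled and fitted in edgeR 4.0.16 (R 4.3.3) with the quasi-likelihood test, and p-values were adjusted over all tested genes by Benjamini-Hochberg. A lane term entered the fit of the 12 HiSeq libraries, while the NextSeq libraries were fitted apart. The 9 genes and the lists were chosen with earlier results of these data known. Values are given for all 9 genes, for accompanying genes on which a sentence rests, and for the 5 nearest in pattern. A gene of an accompanying list was left out and is not reported here. Depth ranged from 6799569 to 30172836 counts per library, and intervals are at the 95% level. The fits were tested on simulated data in which 200 genes were changed.

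The replicate numbers pair the LF libraries, since the study assigned them to different days and deviations from group means correlated across genes between same-numbered libraries (r = 0.88, 0.77 and 0.94). Alternatives were DESeq2 1.42.0, the likelihood ratio test, RLE factors, library size only, other filters, no lane term, single lanes, a replicate block, each library left out, and exchanged or pooled controls. The likelihood ratio test and DESeq2 with block for LF, and exchanged controls for the accompanying lists, were added after seeing the data. Promoters and coding sequences were read with Python 3.11.15 and Biopython 1.88.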

Additional observations from a re-analysis of the deposited data

Results flagged for a closer look

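With the controls as labelled, the changes of LYS4, the homoaconitase gene, differed by the test of the difference itself. Its log2 fold change under AMB-LF exceeded that under AMB by 0.85 (edgeR's quasi-likelihood test, adjusted p = 0.0277). Of all tested genes, 10.1% had a larger change under AMB-LF by this test. With the controls exchanged the difference was -1.35 (adjusted p = 0.00423), and it was not called with a replicate block (0.90, adjusted p = 0.0907), within lane 1 (1.21, adjusted p = 0.0662), or when any of 3 libraries was left out, with values from 0.53 to 0.86 (adjusted p from 0.0527 to 0.264). Over all tested genes 0 such differences were called without the first replicate of the control for AMB or of AMB-LF. Each was the only library of its group in lane 1. The groups held 3 libraries each, so a single library apart from the others of its group was not looked for.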

How the results depend on the processing

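The count of lysine genes increased stayed between 7 and 9 under AMB and between 8 and 9 under AMB-LF over 12 and 11 alternatives, at 9 and 8 with each library left out in turn, and no gene decreased. Single lanes apart, the share of tested genes increased ran from 12.8% to 20.1% under AMB and from 9.92% to 18.6% under AMB-LF. With each library left out it ran from 10.2% to 18.1% and from 5.49% to 15.1%. No alternative called a lysine gene under LF or between AMB-LF and AMB. In the latter, 1 higher and 17 lower over all genes became 6 and 57 with DESeq2. They became 6 and 49 with the likelihood ratio test and 0 and 2 with the replicate block. The difference between the responses depended on the processing: 1 gene (LYS5) had a smaller change under AMB-LF when scaled to library size only (-0.41) or fitted with no lane term (-0.37), and the 1 gene with a larger change (LYS4) was no longer called (0 genes) under the replicate block (0.90) or within lane 1 (1.21), where over all genes 1 and 4 larger changes were called, nor with the controls exchanged, where it reversed. With library size only, with no lane term and with the controls exchanged, 11%, 12.8% and 13.1% of tested genes had a smaller change. With each library left out 0 to 1 lysine gene with a larger change was called, beside 0% to 12.7% of tested genes. With the controls exchanged 7 genes had a smaller change: LYS1 -0.66, LYS2 -0.85, LYS4 -1.35, LYS12 -0.68, LYS20 -0.94, LYS21 -0.65 and LYS14 -0.38. The 6 of these apart from LYS14 reversed, as exchanging the controls adds their difference with the other sign. The 5 genes lower in the control for AMB-LF became 3 with library size only. There 13.4% of tested genes were lower and 27.5% higher, and the median over all tested genes was 0.137. With each library left out 2 to 6 were lower, beside 7.42% to 17.4% of tested genes. Within lane 1, where the control for AMB had 1 library, the median over the 9 genes was -0.423. Why these counts moved was not tested.

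Among AMB and AMB-LF cultures no pairing by replicate number was seen. Deviations of same-numbered libraries correlated at -0.27, -0.5 and -0.28 for AMB and -0.33, -0.11 and 0.04 for AMB-LF. Some same-numbered libraries lay in different lanes and only the labelled controls were compared, so these values cannot decide whether the cultures were paired. With a replicate block 9 and 8 genes remained called there, where 15.5% and 9.92% of tested genes increased. The paired analysis of LF called 0. A fit to lane 2 alone was not possible for AMB-LF, whose control had no library there. With 3 libraries a group and HiSeq depths from 6799569 counts, LYS5 had the lowest counts, from 262 reads in a library, although its standard errors were the smallest of the 9 under AMB and AMB-LF.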
